A study of Mus musculus with 30 samples.

Results

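The comparison was MCD against RCD in mice that received control IgG: 10 livers of mice on the methionine- and choline-deficient diet (MCD IgG) and 5 livers of mice on regular chow (RCD IgG), which are 15 of the 30 liver RNAseq samples of the series. All 15 mice were male C57BL/6 animals, 8 weeks old when the diets began. They were fed their diet for 6 weeks and were given isotype IgG2a in 2 doses a week from week 4 to week 6, so the antibody treatment was shared by both groups. The question was which liver mRNAs differed under the deficient diet when no anti-DBI antibody was given. All genes of the deposited table were the members, of which 13672 of 55487 passed the filter on low counts and were tested. RCD was a chow and not the deficient diet with methionine and choline added back, so a lack of these nutrients and any other difference between the diets cannot be told apart.

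Methionine is the precursor of S-adenosylmethionine, the methyl donor of the cell, and choline is a building block of phosphatidylcholine and, through betaine, another source of methyl groups. The liver needs phosphatidylcholine to coat the very-low-density lipoproteins that carry triglyceride into the blood, and livers of mice that lack both nutrients are known to store fat and to become inflamed. A shortage of amino acids is sensed in the cytoplasm and raises translation of ATF4, a transcription factor that switches on genes for amino acid uptake and synthesis.

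Library totals were 10283129 to 15847636 counts in MCD IgG livers and 8357168 to 13382128 counts in RCD IgG livers. Levels are given below as CPM (counts per 1000000 counts of the library) scaled with TMM factors, so they are shares of a library and do not allow 1 gene's level to be set against another's. Hepatocyte genes dominated every library, with 60920 to 114800 CPM of Alb, the gene of albumin, in MCD IgG livers and 80810 to 102500 CPM in RCD IgG livers. Mitochondrially encoded genes took 4.014 to 4.728% of the counts in MCD IgG livers and 4.985 to 5.686% in RCD IgG livers. Every pair of libraries of a group differed by more than the sampling noise. RCD IgG 3 stood apart by genes of bile ducts and smooth muscle: Krt19, a keratin of bile duct cells, was at 15.1 CPM there and at 0.393 to 1.21 CPM in the other RCD IgG livers, and Myh11, the smooth muscle myosin, was at 29.9 CPM against 2.81 to 4.62 CPM. Among MCD IgG livers the same genes were highest in MCD IgG 2, at 5.91 CPM of Krt19 and 17 CPM of Myh11. With all livers, 6 of 11 tested cholangiocyte markers were higher in MCD IgG and none was lower. The higher count was 10 without RCD IgG 3 and 3 without RCD IgG 1, 2 or 4, or when 10 counts were required in every library. RCD IgG 4 differed from its group in growth hormone response genes, with 82.1 CPM of Cish against 8.31 to 18.3 CPM in the other RCD IgG livers.

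Of the 13672 genes tested, 57.1% passed the threshold (edgeR's quasi-likelihood test, adjusted p under 0.05), 29.9% higher and 27.2% lower in MCD IgG livers. A change of at least 2-fold was called for 15.9% of them, 11% higher and 4.9% lower. In 13.1% of the genes every MCD IgG liver lay above every RCD IgG liver and in 14% every one lay below. The direction of small changes depended on the scaling: higher genes made up 52.3% of the genes called with TMM, 61.1% with upper-quartile scaling and 76.7% with library totals alone, where the median over all genes lay at 0.27 on the log2 scale, against 0.0261 with TMM. Changes below are relative to the TMM scaling. Counts of list members below are to be read beside the shares over all genes, and a list near those shares does not stand out.

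**Figure D1:**
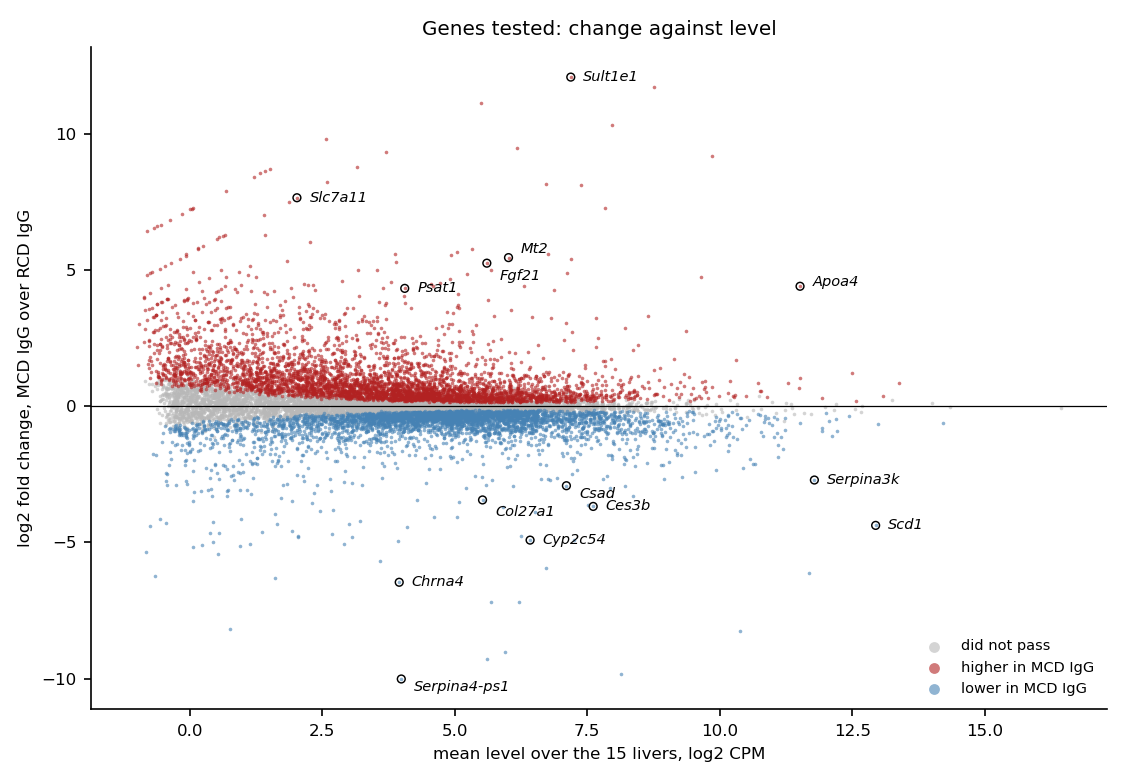
Each point is 1 of 13672 genes, with the mean level over the 15 livers (log2 CPM) on the x axis and the log2 fold change of MCD IgG over RCD IgG on the y axis. Red genes were higher and blue genes lower in MCD IgG livers at an adjusted p under 0.05 and grey genes did not pass. Among the labelled genes, circled and named in the text, Sult1e1 lies highest at 12.08 and Serpina4-ps1 lowest at −10.01.

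Apoa4, a lipoprotein of chylomicrons and high-density lipoproteins, was among the mRNAs that gained most counts, and Scd1, the stearoyl-CoA desaturase that makes oleate, lost most. Apoa4 (chr9:46240696-46243459, GRCm38) had 2620, 3930 and 7006 CPM as the lowest, median and highest of the 10 MCD IgG livers, against 219, 196, 146, 176 and 274 CPM in the RCD IgG livers (log2 fold change 4.40 ± 0.25 SE, edgeR adjusted p = 8.92e-11). Scd1 (chr19:44394455-44407879) had 339, 685 and 4015 CPM in MCD IgG livers and 25800, 18930, 21610, 15290 and 25830 CPM in RCD IgG livers (−4.37 ± 0.43, adjusted p = 1.3e-07). The groups did not overlap for either gene, and the value of 4015 CPM was that of MCD IgG 5, well above the other MCD IgG livers. The 10 genes with the largest gain in mean CPM held 23.4% of all gains and the 10 with the largest loss 24% of all losses. Besides Scd1, the losses included secreted protease inhibitors: Serpina3k averaged 1239 ± 303 CPM in MCD IgG livers and 8099 ± 1437 CPM in RCD IgG livers (SD, n = 10 and 5), Serpina1c averaged 1168 ± 190 and 4229 ± 539 CPM, and Pzp, an alpha-2-macroglobulin, averaged 3637 ± 271 and 6905 ± 322 CPM. Among the gains stood P4hb, the protein disulfide isomerase, with 2924 ± 266 CPM in MCD IgG livers and 1621 ± 118 CPM in RCD IgG livers. Members of the Serpina1, Serpina3, Mup, Cyp3a and Sult2a families share near-identical sequence, so how reads were split among them is uncertain.

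Some genes were nearly silent on 1 diet. Sult1e1, the estrogen sulfotransferase (chr5:87575969-87591594), had 199, 217 and 235 CPM as the lowest, median and highest MCD IgG value, and 0, 0.0983, 0, 0.084 and 0 CPM in the RCD IgG livers. The RCD IgG libraries held 2 counts of it in all and the MCD IgG libraries 30163, a ratio of 5420 (95% exact counting interval 1500 to 44700, which covers counting error only). Every MCD IgG liver lay above every RCD IgG liver. The neighbouring organic anion transporter genes Slc22a26 and Slc22a27 (chr19:7781041-7802667 and chr19:7864388-7966027) rose by 5.67 ± 0.41 and 5.57 ± 0.26 on the log2 scale, with medians of 43.8 and 45.8 CPM in MCD IgG livers against levels of 0.402 to 1.97 and 0.402 to 1.38 CPM in RCD IgG livers.

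Several genes had no count in any RCD IgG library. Against a floor of 3 counts over the group, the MCD IgG mean of the sulfotransferase Sult2a3 was at least 66.2-fold higher. For Sult2a2 it was at least 56.9-fold, for Sult2a1 at least 39.3-fold and for the keratin Krt20 at least 70.2-fold higher. The MCD IgG livers spread widely. Their lowest, median and highest values were 1.98, 3.72 and 8.54 CPM for Sult2a3 and 0.778, 3.03 and 9.94 CPM for Sult2a2. They were 0.313, 1.65 and 5.51 CPM for Sult2a1 and 0.275, 2.83 and 19.3 CPM for Krt20. Sult2a3 and Krt20 were named after their values were seen. In the other direction, the pseudogene Serpina4-ps1 had 0, 0 and 0.126 CPM as its lowest, median and highest value in MCD IgG livers, against 47.4, 36.8, 20.1, 82.2 and 51.5 CPM in RCD IgG livers. Chrna4, a nicotinic acetylcholine receptor subunit, fell to 0, 0.361 and 2.29 CPM in MCD IgG livers, against 45.6, 24.7, 44.6, 36.7 and 75.2 CPM in RCD IgG livers (−6.46 ± 0.36, edgeR adjusted p = 9.43e-11).

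Genes of methionine, choline and folate metabolism did not move as 1 block. In the methionine cycle, 4 of 11 tested members were higher and 4 lower, where 29.9% of all genes tested were higher and 27.2% lower. The median was 0.096 on the log2 scale, and without MCD IgG 4 the higher count was 2. Mat2a, the methionine adenosyltransferase of tissues other than adult hepatocytes, had 157, 313 and 379 CPM in MCD IgG livers and 112, 95.5, 93.7, 110 and 105 CPM in RCD IgG livers (1.49 ± 0.17, edgeR adjusted p = 5.76e-07). Mat1a, its hepatocyte counterpart, rose by 0.30 ± 0.12 (edgeR adjusted p = 0.0437). That call was lost without any 1 of MCD IgG 1, 2, 4, 5, 7 and 9 or RCD IgG 1, 3 and 4. The edgeR adjusted p was then up to 0.138, without RCD IgG 1. It was also lost without a filter on low counts and with limma on log2(CPM + 1). Bhmt, which remethylates homocysteine with betaine, rose by 0.68 ± 0.14 (edgeR adjusted p = 3.6e-04). Of the methyltransferases that use S-adenosylmethionine, Gnmt, which methylates glycine, had 445, 708 and 1259 CPM in MCD IgG livers and 1887, 2042, 1885, 1843 and 2313 CPM in RCD IgG livers (−1.42 ± 0.17, adjusted p = 1.5e-06), and Gamt, the last step of creatine synthesis, fell by 1.08 ± 0.14. Ahcy, which clears S-adenosylhomocysteine, fell by 0.81 ± 0.14 with overlapping ranges. MCD IgG 2 had the lowest Mat2a and the highest Gnmt, Gamt and Ahcy of the MCD IgG livers.

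Transsulfuration turns homocysteine into cysteine, from which glutathione and taurine are made. Of 9 tested members 5 were lower and 1 was higher (median −0.253), and with library totals alone 3 were lower. Csad, which decarboxylates cysteine sulfinate on the route to taurine, showed the largest fall, with 23.3, 38.7 and 71.7 CPM in MCD IgG livers and 193, 270, 602, 257 and 311 CPM in RCD IgG livers (−2.92 ± 0.27, edgeR adjusted p = 5.46e-08). Cbs, the entry step, fell by 0.70 ± 0.13 and overlapped in range, whereas Cth, the next step, was at −0.19 ± 0.13 and did not pass (adjusted p = 0.207). Glutathione synthesis was split. Gss, its final step, had 133, 151 and 192 CPM in MCD IgG livers and 75.2, 59, 74.6, 72.3 and 59.9 CPM in RCD IgG livers (1.16 ± 0.09, adjusted p = 8.66e-09), while Gclc, the catalytic subunit of the step before, was at 0.04 ± 0.11 (adjusted p = 0.786).

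**Figure D2:**
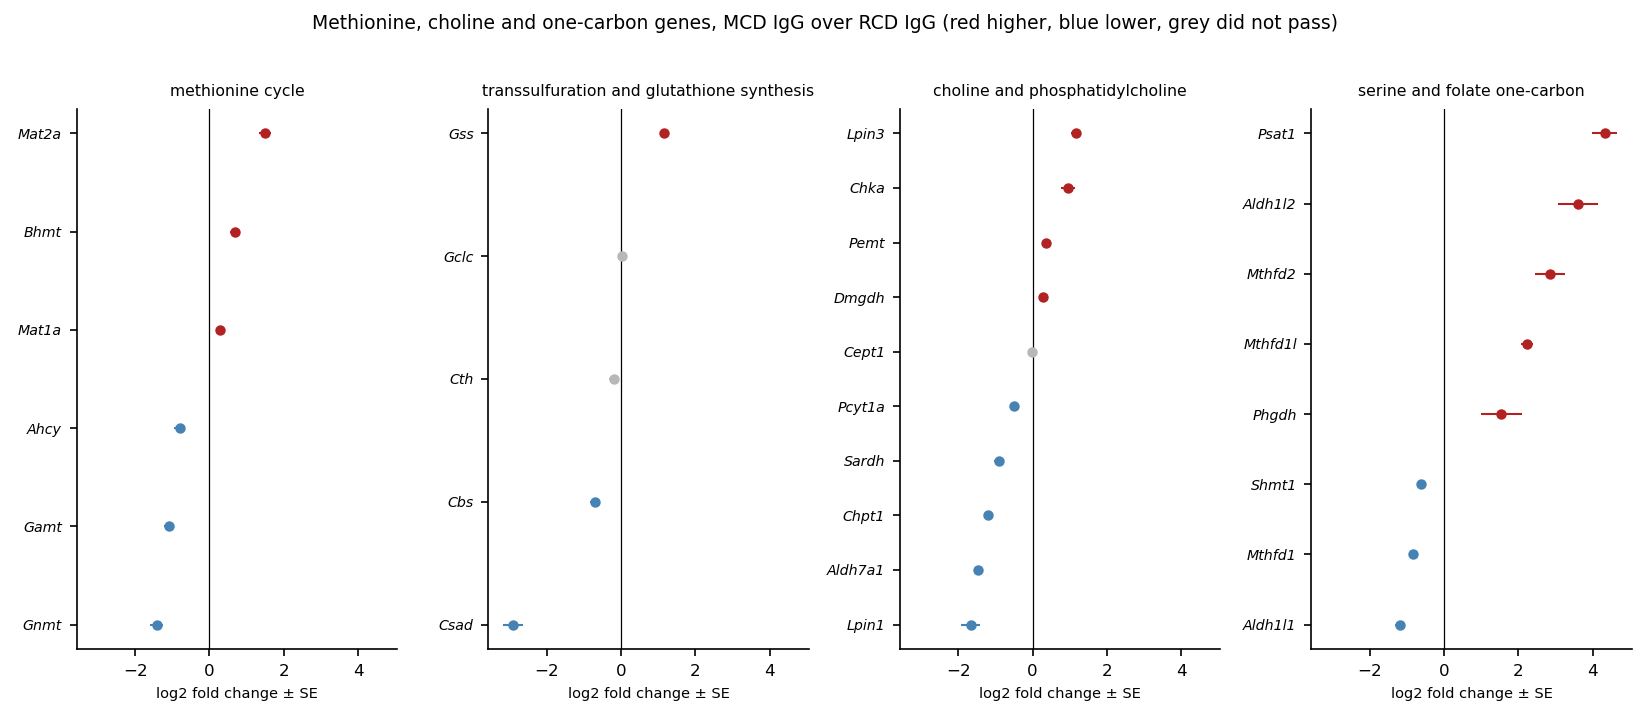
Points are log2 fold changes of MCD IgG over RCD IgG (x axis) with standard errors, 1 gene a line, for the genes named in the text of the methionine cycle, transsulfuration and glutathione synthesis, choline and phosphatidylcholine, and serine and folate genes. Red genes were higher, blue genes lower and grey genes did not pass, and the serine and folate panel runs from −1.19 for Aldh1l1 to 4.33 for Psat1.

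Of 22 tested choline and phosphatidylcholine genes 11 were lower and 5 higher (median −0.374), and the higher count was 3 without MCD IgG 4 or without RCD IgG 2. Chka, the kinase that traps choline in the cell, rose by 0.96 ± 0.20, with 17.7, 25.5 and 49.6 CPM in MCD IgG livers and 16.2, 14.2, 15.2, 13.1 and 15.2 CPM in RCD IgG livers. Of the later steps of the same route, Pcyt1a, which activates phosphocholine, fell by 0.50 ± 0.07 and Chpt1, the cholinephosphotransferase, by 1.21 ± 0.11, with 55 to 86.1 CPM of Chpt1 in MCD IgG livers against 140 to 212 CPM in RCD IgG livers. Cept1, which catalyses the same last step as Chpt1, did not pass (edgeR adjusted p = 0.97). Pemt, which makes phosphatidylcholine by methylating phosphatidylethanolamine, rose by 0.36 ± 0.10 with overlapping ranges. In choline and betaine breakdown, Aldh7a1, which oxidises betaine aldehyde, fell by 1.48 ± 0.11 and Sardh, the sarcosine dehydrogenase, by 0.90 ± 0.13. Dmgdh, the dimethylglycine dehydrogenase, rose by 0.27 ± 0.11 with overlapping ranges (edgeR adjusted p = 0.0356). That call was lost without any 1 of MCD IgG 1, 2, 4, 6 and 7 or RCD IgG 2, 3 and 4, with an adjusted p of up to 0.113. Of the lipins, which make the diacylglycerol that choline is joined to, Lpin1 fell by 1.67 ± 0.24 and Lpin3 rose by 1.17 ± 0.14.

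The mitochondrial and the cytosolic folate enzymes named here moved in opposite directions. Of 17 tested members 6 were higher and 8 lower (median −0.0131, and −0.447 to 0.224 over the alternatives), and 2 were higher when 10 counts were required in every library. Among the higher ones were Psat1 and Phgdh of serine synthesis and the mitochondrial folate enzymes Mthfd2, Mthfd1l and Aldh1l2. The call of Phgdh was lost without RCD IgG 2 or RCD IgG 5 (edgeR adjusted p = 0.0673 and 0.0658). Psat1 had 8.73, 26.8 and 32.3 CPM in MCD IgG livers and 0.536, 0.786, 1.7, 1.26 and 1.62 CPM in RCD IgG livers (4.33 ± 0.34, edgeR adjusted p = 7.96e-09). Mthfd1l had 15 to 20.3 CPM in MCD IgG livers against 2.36 to 5.6 CPM in RCD IgG livers (2.23 ± 0.15). The cytosolic folate enzymes Aldh1l1, Mthfd1 and Shmt1 fell by 1.19 ± 0.13, 0.85 ± 0.08 and 0.62 ± 0.09, and none of them overlapped between groups.

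Targets of ATF4 rose together: 17 of 22 tested members were higher and 1 was lower, with a median of 1.74 (1.02 to 1.98 over the alternatives). Atf4 itself rose by 0.40 ± 0.15 (edgeR adjusted p = 0.0346), a call that was lost with the replicate block (adjusted p = 0.246). It was also lost without any 1 of MCD IgG 4, 5, 6, 7 and 8 or RCD IgG 2, 3 and 4. The edgeR adjusted p was then 0.0519 to 0.0918. Slc7a11, the cystine importer, had 2.65, 5.69 and 9.48 CPM in MCD IgG livers and 1 count over the 5 RCD IgG libraries, a ratio of 302 (95% exact counting interval 54 to 11900). Atf3, a stress transcription factor, had 14.7, 37 and 59.1 CPM in MCD IgG livers and 1.34, 1.08, 1.3, 2.02 and 2.63 CPM in RCD IgG livers (4.52 ± 0.38, adjusted p = 1.96e-08). Pck2, the mitochondrial phosphoenolpyruvate carboxykinase, rose by 2.54 ± 0.16, Trib3 by 2.64 ± 0.37 and Ddit3, the gene of CHOP, by 1.88 ± 0.23. Slc38a2, a neutral amino acid importer, was the lower member (−0.81 ± 0.20). Within the MCD IgG group the livers differed in order: MCD IgG 2 was lowest for Atf3, Trib3, Ddit3 and Atf4, and MCD IgG 5 was highest for Trib3, Ddit3, Pck2 and Chac1, a glutathione-degrading enzyme.

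The promoters of these genes can be read for the letters TGATGNAA, the core of the C/EBP-ATF element to which ATF4 binds with a C/EBP partner. In the 250 bases before the start of transcription, on either strand, 7 of the 21 members with a promoter in RefSeq (GRCm38.p6) held it, all of them among the 16 higher members with a promoter and none among the 5 others. Over all promoters of that length the share was 3.45%, and 3.91% of all genes held it in at least 1 promoter. It was 2.65% of the higher, 2.47% of the lower and 2.48% of the other tested genes. The list was made of known ATF4 targets and was chosen with earlier results of these data known. Its larger share may come from that choice, so it is no test of these data. A match is a description of letters and does not show that a factor was bound. The windows below, shown because these genes moved together and carry the same core, have the core in capitals and are printed 5′ to 3′ on the strand that reads TGATGNAA.
Asns (chr6:7693210-7693258, minus strand): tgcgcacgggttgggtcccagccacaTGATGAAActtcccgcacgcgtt
Atf3 (chr1:191183410-191183469, plus strand): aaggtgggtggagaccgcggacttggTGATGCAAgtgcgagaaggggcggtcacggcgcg
Chac1 (chr2:119351023-119351082, minus strand): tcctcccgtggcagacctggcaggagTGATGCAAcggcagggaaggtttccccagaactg
Nupr1 (chr7:126625547-126625606, plus strand): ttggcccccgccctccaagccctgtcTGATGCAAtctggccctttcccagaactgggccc
Pck2 (chr14:55540137-55540196, minus strand): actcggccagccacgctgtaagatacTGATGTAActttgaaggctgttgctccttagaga
Slc7a11 (chr3:50443627-50443705, minus strand): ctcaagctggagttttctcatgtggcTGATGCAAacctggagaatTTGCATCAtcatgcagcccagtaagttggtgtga
Vldlr (chr19:27216794-27216853, minus strand): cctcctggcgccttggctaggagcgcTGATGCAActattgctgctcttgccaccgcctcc
Slc7a11 holds the core 2 times, on opposite strands, and the letters sit from base 66 to base 40 before its start. In Atf3 and Nupr1 the match lies at the same distance, bases 110 to 103, and in Asns it ends 16 bases before the start. The gene with the weakest rise of the 7 was Vldlr, a lipoprotein receptor, which rose by 1.46 ± 0.21, with 5.51 to 10.4 CPM in MCD IgG livers against 1.68 to 4.4 CPM in RCD IgG livers.

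Charging of tRNA is another ATF4-linked step, and here the enzymes split. Of 20 cytosolic tRNA synthetases 10 were higher and 4 lower (median 0.252; 2 lower with library totals alone), and 6 were higher with the replicate number as a block. Gars and Sars, for glycine and serine, rose by 1.04 ± 0.09 and 0.91 ± 0.09, while Tars and Mars1, for threonine and methionine, fell by 0.67 ± 0.12 and 0.51 ± 0.10. Mars1 (chr10:127296221-127311786) overlaps the end of Ddit3 (chr10:127290774-127296288), and since strand was not stated for the counting, reads from that overlap cannot be assigned. Genes for folding in the endoplasmic reticulum showed no common direction, with 4 of 20 higher and 6 lower (median −0.133, and −0.192 to 0.113 over the alternatives). Hspa5, its main chaperone, rose by 0.63 ± 0.17 with overlapping ranges, and Herpud1, a target of the unfolded protein response, fell by 0.98 ± 0.17, with 174 to 360 CPM in MCD IgG livers against 472 to 549 CPM in RCD IgG livers. With library totals alone 7 were higher and 2 lower, and with the replicate block 1 was higher.

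Metallothioneins, which bind zinc and copper, rose steeply. Mt1 had 120, 197 and 372 CPM in MCD IgG livers and 6.3, 7.57, 9.6, 6.72 and 4.45 CPM in RCD IgG livers (4.87 ± 0.32, edgeR adjusted p = 6.91e-10). Mt2 had 43.1, 97.3 and 179 CPM in MCD IgG livers and 2.81, 2.26, 1.9, 2.18 and 1.82 CPM in RCD IgG livers (5.46 ± 0.42, adjusted p = 6e-09). Of the zinc and manganese transporters, Slc39a5 rose by 3.73 ± 0.43, whereas Slc30a10, which exports manganese, fell by 1.79 ± 0.20 and Slc30a1, a zinc exporter, by 0.45 ± 0.08.

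Targets of NRF2, the factor of the antioxidant response, moved both ways, with 11 of 26 higher and 9 lower (median 0.175; 5 lower with library totals alone). Abcc4, an efflux pump of the basolateral membrane, had 33.5, 41.1 and 50.5 CPM in MCD IgG livers and 4.42, 6.19, 6, 4.62 and 4.45 CPM in RCD IgG livers (3.02 ± 0.13, edgeR adjusted p = 2.91e-12). Srxn1, the sulfiredoxin, rose by 2.07 ± 0.18, Hmox1, the heme oxygenase, by 1.80 ± 0.23 and Nqo1, a quinone reductase, by 1.58 ± 0.17. Gstp1, a glutathione transferase that is higher in male than in female mouse liver, fell by 1.72 ± 0.13, Aox1, an aldehyde oxidase, fell by 1.77 ± 0.08, and Txnrd1 was at −0.04 ± 0.09 and did not pass. The letters TGACNNNGC, the core of the antioxidant element, were in 5 of the 22 members with a promoter, 1 of 9 higher and 4 of 13 others. They were in 10.2% of all promoters of 250 bases and in 11.5% of all genes. Over tested genes with a promoter the share was 14.2% of the higher, 13.6% of the lower and 14% of the other genes.

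Among p53 targets 10 of 15 were higher and 1 lower (median 0.489; 6 higher when 10 counts were required in every library). Cdkn1a, the cell cycle inhibitor p21, had 7.25, 19.6 and 28.9 CPM in MCD IgG livers and 2.01, 1.67, 1.2, 1.01 and 1.31 CPM in RCD IgG livers (3.73 ± 0.36, edgeR adjusted p = 1.2e-07), while Mdm2, which p53 also drives, was at 0.13 ± 0.09 (adjusted p = 0.205). Of 17 cell death genes 10 were higher and 4 lower (2 lower with library totals alone, with upper-quartile scaling or with the replicate block), among them the higher Gsdme (2.57 ± 0.30), a pore-forming gasdermin.

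Of the hormones that the liver releases, Fgf21, which acts on feeding and fat tissue, had 9.08, 56.2 and 184 CPM in MCD IgG livers and 1.07, 1.18, 2.2, 1.01 and 3.94 CPM in RCD IgG livers (5.25 ± 0.71, edgeR adjusted p = 6.44e-06). The groups did not overlap, but the MCD IgG livers spread over a wide range, with MCD IgG 2 lowest and MCD IgG 7 highest. Gdf15, a stress hormone, rose by 2.45 ± 0.34, Lect2, a chemotactic hepatokine, by 1.41 ± 0.10 and Igfbp1, a binding protein of IGF1, by 3.25 ± 0.51. In all 5 of 13 hepatokines were higher and 1 was lower, where 29.9% of all genes tested were higher and 27.2% lower.

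Of 19 genes of the growth hormone and IGF1 axis 7 were lower and 6 higher (median −0.155, and −0.184 to 0.0836 over the alternatives). Ghr, the growth hormone receptor, had 152, 188 and 245 CPM in MCD IgG livers and 672, 697, 577, 673 and 635 CPM in RCD IgG livers (−1.76 ± 0.08, edgeR adjusted p = 7.82e-12). Stat5b, which carries its signal, fell by 0.69 ± 0.06 and Igf1, its main output, by 0.58 ± 0.12, although the ranges of Igf1 overlapped. Bcl6, a repressor that opposes STAT5, fell by 3.01 ± 0.27, with 5.51 to 19.7 CPM in MCD IgG livers, against 29.1 CPM in RCD IgG 4 and 86.4 to 117 CPM in the other RCD IgG livers. Cux2, a repressor found in female mouse liver, had 6.11, 26.3 and 80.2 CPM in MCD IgG livers and 0.67, 1.18, 4.7, 1.01 and 0.405 CPM in RCD IgG livers (4.42 ± 0.75). Egfr, the epidermal growth factor receptor, fell by 2.91 ± 0.21.

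Plasma proteins made by hepatocytes moved in different directions by family. Acute phase proteins were mostly higher, 14 of 24 with 2 lower (median 0.798). Apcs, serum amyloid P, had 340, 551 and 861 CPM in MCD IgG livers and 54, 49.1, 65.7, 59.2 and 59.7 CPM in RCD IgG livers (3.31 ± 0.18, edgeR adjusted p = 6.42e-11), and Hpx and Hp, which bind heme and hemoglobin, rose by 1.24 ± 0.12 and 1.02 ± 0.11. Saa1, the classical acute phase marker of mice, rose by 1.98 ± 0.62 (adjusted p = 0.0113), but its ranges overlapped, with 11.7, 71 and 444 CPM in MCD IgG livers and 45.1, 28.7, 31.9, 17.7 and 19 CPM in RCD IgG livers. The lower members were Saa4 (−1.14 ± 0.12) and Crp (−0.67 ± 0.10).

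Complement genes mostly fell, 15 of 25 with 5 higher and a median of −0.645 (−0.686 to −0.405 over the alternatives). The terminal components that form the membrane attack complex were among those that fell: C8a had 162, 187 and 223 CPM in MCD IgG livers and 910, 720, 736, 888 and 754 CPM in RCD IgG livers (−2.08 ± 0.08, edgeR adjusted p = 1.24e-12), and C6, C8b and C9 fell by 2.72 ± 0.17, 2.01 ± 0.12 and 1.92 ± 0.13. The lectin Mbl2 fell by 2.50 ± 0.23, whereas C3, the most central component, was at 0.21 ± 0.09 (adjusted p = 0.0568). The C1q chains, which macrophages make, were higher (C1qb 0.76 ± 0.16). Monocyte and macrophage markers were higher in 16 of 19 and lower in none. These summed to 430 to 1610 CPM in MCD IgG livers and 375 to 476 CPM in RCD IgG livers, with Ly6c2 and Cx3cr1 at 0 in at least 1 RCD IgG liver. Kupffer cell markers went the other way in their median, with a log2 fold change of −0.723 to −0.309 over the alternatives, but not in every liver. Their mean log2(CPM + 1) minus the RCD IgG mean ran from −0.945 to 0.409 in MCD IgG livers, highest in MCD IgG 2. In RCD IgG livers it ran from −0.179 to 0.262. The part of either kind of macrophage in the C1q values was not tested. In bulk liver, more or fewer cells of a type and more or less RNA per cell cannot be told apart.

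Coagulation genes were lower in 16 of 25 (median −0.346; 10 lower and 7 higher with library totals alone), with falls of Klkb1, the prekallikrein, by 1.08 ± 0.12, F11 by 0.85 ± 0.09, F7 by 0.84 ± 0.14 and Plg, plasminogen, by 0.68 ± 0.12. None of the 4 higher members was a clotting factor, and they included genes of plasminogen activation, Plat (3.66 ± 0.64), Plaur (3.39 ± 0.35) and Plau (1.96 ± 0.29). Levels were low, with 2.2 to 15.6 CPM of Plat in MCD IgG livers against 0.101 to 1.2 CPM in RCD IgG livers, and MCD IgG 3 held the highest value of Plat, Plaur and Plau. When 10 counts were required in every library, 1 member of the list was higher.

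**Figure D3:**
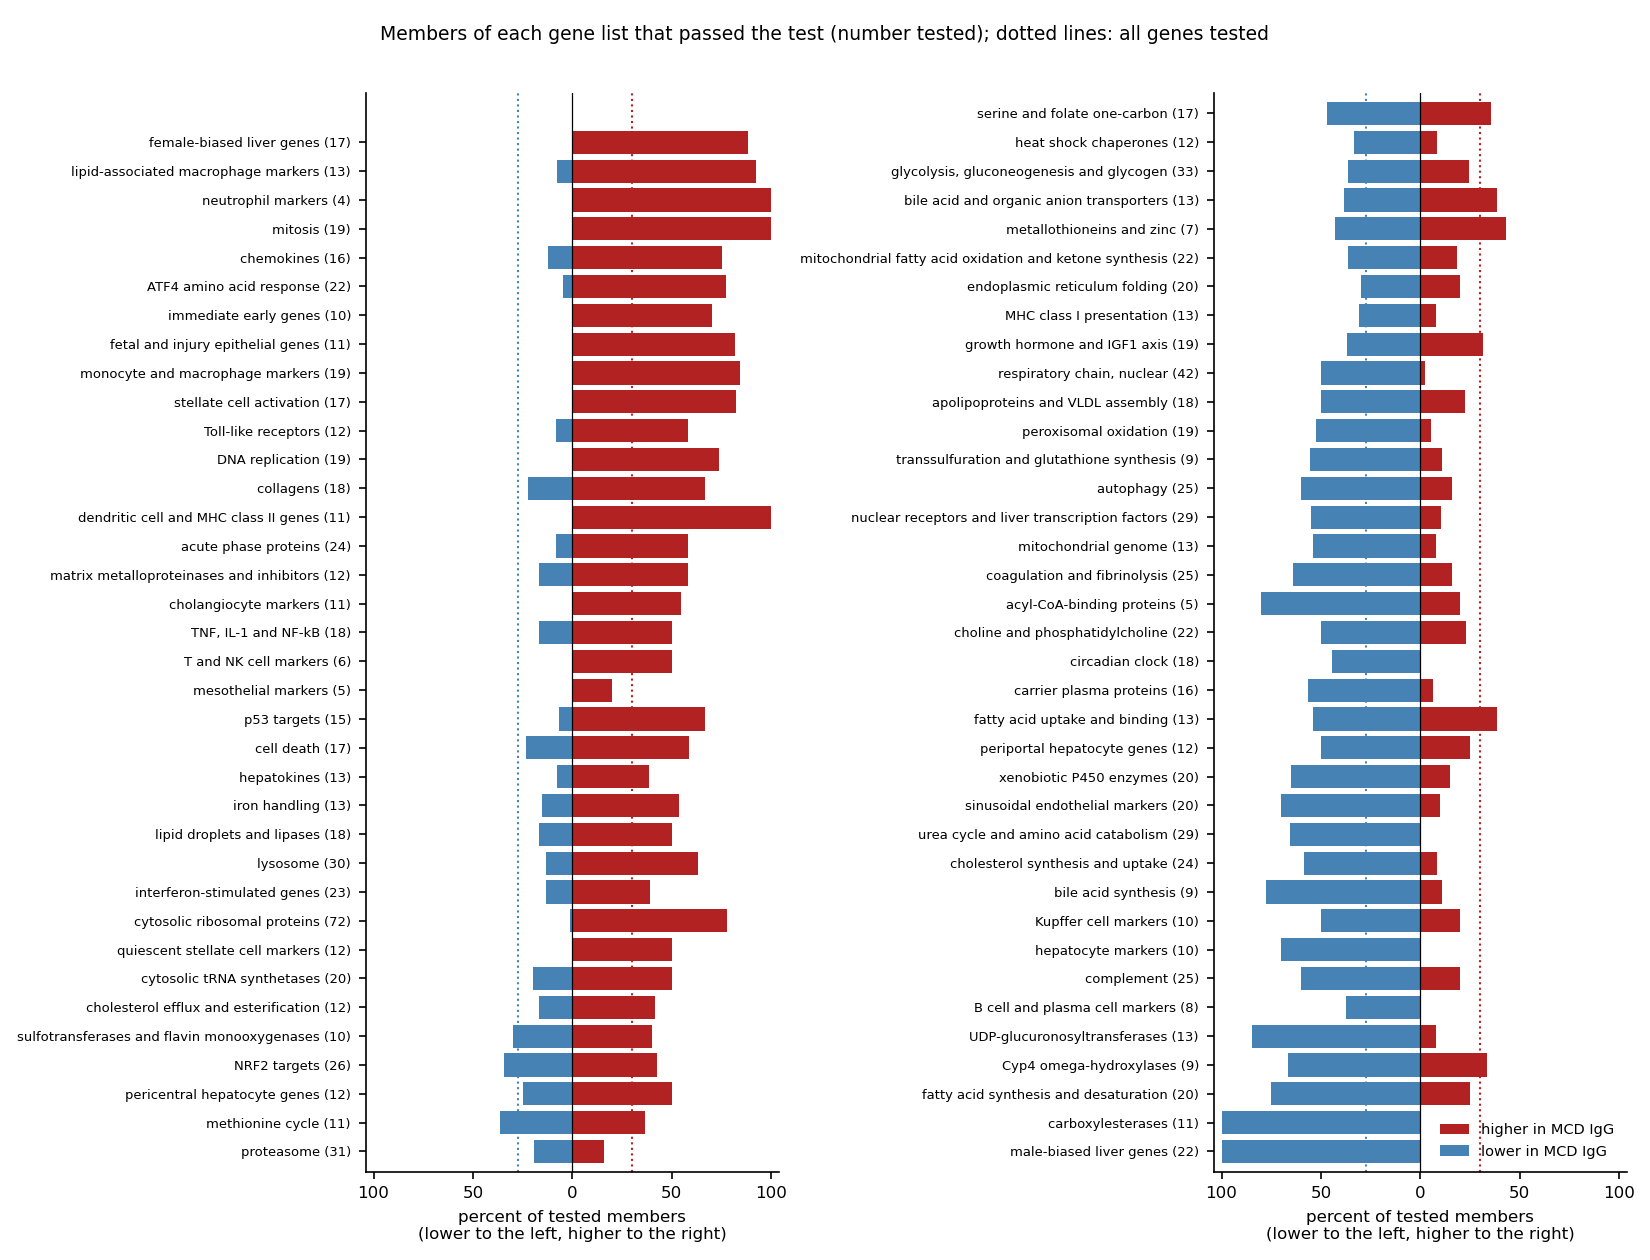
Bars give the percent of tested members of each of 73 gene lists that were higher (red, to the right) or lower (blue, to the left) in MCD IgG livers, ordered by the median log2 fold change, with the number tested in brackets. Dotted lines mark the shares over all genes tested, 29.9% higher and 27.2% lower.

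Genes for export of lipid did not move alike. Mttp, which loads triglyceride onto apolipoprotein B, had 178, 209 and 261 CPM in MCD IgG livers and 481, 450, 420, 384 and 435 CPM in RCD IgG livers (−1.03 ± 0.07, edgeR adjusted p = 2.84e-09), and Sar1b, which moves the particles out of the endoplasmic reticulum, fell by 0.88 ± 0.07. Apob was at 0.09 ± 0.08 (adjusted p = 0.347), with 4578 to 5251 CPM in MCD IgG livers against 3809 to 5095 CPM in RCD IgG livers. Dbi, which encodes the acyl-CoA-binding protein that the antibody of the series targets, had 284, 328 and 349 CPM in MCD IgG livers and 597, 591, 642, 566 and 669 CPM in RCD IgG livers (−0.92 ± 0.06, adjusted p = 1.34e-09). Its paralogs Acbd5, on peroxisomes, and Acbd4 fell by 0.79 ± 0.06 and 0.36 ± 0.08, and Acbd3, a Golgi protein, rose by 0.65 ± 0.16. Lower counts of Dbi, Acbd5, Acbd4 and a further member made 4 of 5 tested acyl-CoA-binding proteins, and 2 with library totals alone. Fabp1, the fatty acid carrier of hepatocytes, fell by 2.27 ± 0.16 and Lpl, the lipoprotein lipase, which macrophages also make, rose by 3.07 ± 0.26.

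Peroxisomal genes were lower in 10 of 19 with 1 higher (median −0.25). Cat, the catalase, had 1184, 1381 and 1663 CPM in MCD IgG livers and 3655, 4107, 3401, 3766 and 3939 CPM in RCD IgG livers (−1.43 ± 0.08, edgeR adjusted p = 5.32e-11), and Phyh and Scp2 of peroxisomal oxidation fell by 1.41 ± 0.12 and 1.14 ± 0.09. Of 9 Cyp4 omega-hydroxylases 6 were lower and 3 higher (median −0.982), and the higher members were Cyp4a14, Cyp4a31 and Cyp4a10, by 4.76 ± 0.51, 5.58 ± 0.26 and 1.07 ± 0.26. Cyp4a14 had 572, 970 and 2200 CPM in MCD IgG livers and 22, 106, 58, 15.5 and 15.9 CPM in RCD IgG livers. Of 22 genes of mitochondrial fatty acid oxidation and ketone synthesis 4 were higher and 8 lower, where 29.9% of all genes tested were higher and 27.2% lower. With library totals alone 9 were higher and 2 lower, and 3 were lower with upper-quartile scaling, with the replicate block or without RCD IgG 2.

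Cholesterol synthesis and uptake genes were lower in 14 of 24 and higher in 2 (median −0.606). Tm7sf2, a sterol reductase, fell by 2.20 ± 0.23 with 13.6 to 57.9 CPM in MCD IgG livers against 113 to 164 CPM in RCD IgG livers, and Insig1, the sterol sensor partner, by 1.40 ± 0.18. Sqle was at −0.12 ± 0.24 (edgeR adjusted p = 0.695), and the higher members included Srebf2 (0.36 ± 0.08), the gene of the factor that drives the pathway.

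Of 9 bile acid synthesis genes 7 were lower and 1 higher (median −0.615). Of 13 bile acid and organic anion transporters 5 were lower and 5 higher (median −0.0728; −0.144 to 0.17 over the alternatives, and 3 higher when 10 counts were required in every library). Slc10a1, the sodium-dependent bile acid importer NTCP, had 70.7, 194 and 389 CPM in MCD IgG livers and 964, 935, 990, 869 and 1134 CPM in RCD IgG livers (−2.17 ± 0.29, edgeR adjusted p = 5.31e-06). Cyp27a1, which starts the alternative pathway, fell by 1.58 ± 0.21. Cyp8b1, which sets the cholic acid share, fell by 1.38 ± 0.26 with overlapping ranges. Cyp7a1, the rate-limiting enzyme of the classical pathway, was at −0.22 ± 0.19 (edgeR adjusted p = 0.333). The export pump Abcb11 fell by 0.94 ± 0.18 with overlapping ranges. The exporters Abcb1a and Slc51b, which is low in mouse liver, rose by 1.78 ± 0.11 and 2.74 ± 0.31.

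All 11 carboxylesterases tested were lower, with a median of −1.66, and in 9 of them the groups did not overlap. Ces1f had 49.6, 70.2 and 96.4 CPM in MCD IgG livers and 537, 608, 600, 593 and 570 CPM in RCD IgG livers (−3.00 ± 0.12, edgeR adjusted p = 1.88e-12), and Ces3b and Ces2a fell by 3.68 ± 0.33 and 3.63 ± 0.22. Of 13 UDP-glucuronosyltransferases 11 were lower and 1 higher (median −0.814). Ugt2b5, which had nearly the same level in every MCD IgG liver, was at 285, 305 and 337 CPM there and at 989, 839, 961, 884 and 889 CPM in RCD IgG livers (−1.57 ± 0.06, adjusted p = 3.82e-13), and the higher member was the low Ugt2b37 (2.88 ± 0.33). Of 20 xenobiotic P450 genes, counting that of the P450 reductase, 13 were lower and 3 higher (5 higher with library totals alone). The list does not hold every P450 gene. Cyp3a44, outside it, rose by 9.49 ± 0.96 from at most 0.3 CPM in RCD IgG livers. The lower members of the list included Cyp2c54, which had 0.602, 3.95 and 26.8 CPM in MCD IgG livers and 211, 261, 231, 273 and 226 CPM in RCD IgG livers (−4.91 ± 0.50), and Cyp2c29 (−2.59 ± 0.32). Carboxylesterases and P450 enzymes come in clusters of similar genes, so reads may have been shared among neighbours.

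**Figure D4:**
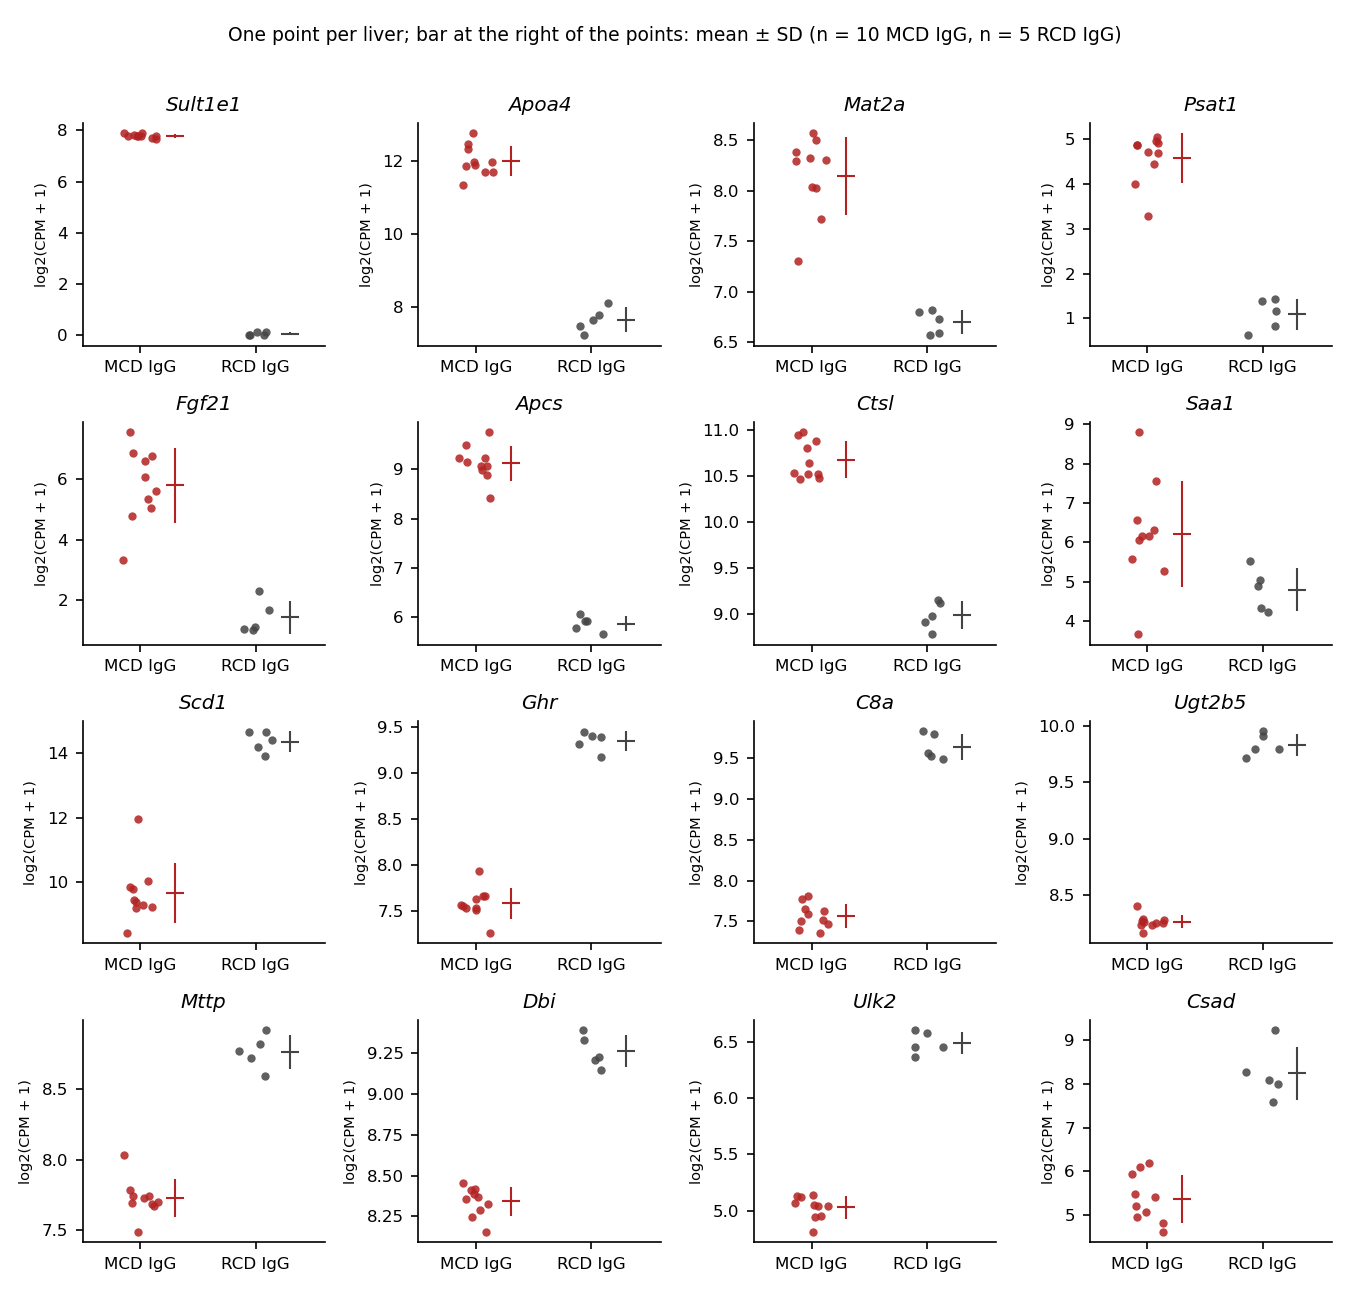
Each panel gives 1 gene as log2(CPM + 1) on the y axis, with 1 point per liver, MCD IgG at the left and RCD IgG at the right, and the mean ± SD beside the points (n = 10 and 5). Of the 16 genes, Saa1 is the one whose groups overlap, and Sult1e1 and Ugt2b5 have the tightest MCD IgG values.

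Amino acid catabolism was lower in 19 of 29 genes and higher in none (median −0.574, and −0.665 to −0.346 over the alternatives). In the urea cycle, Otc had 115, 157 and 240 CPM in MCD IgG livers and 531, 519, 392, 525 and 494 CPM in RCD IgG livers (−1.57 ± 0.14, edgeR adjusted p = 5.69e-08), Asl fell by 0.94 ± 0.15 and Cps1, the entry step, by 0.90 ± 0.13. Haao and Kynu, of the route that degrades tryptophan through kynurenine, fell by 1.88 ± 0.15 and 1.31 ± 0.12.

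Glycolysis, gluconeogenesis and glycogen genes had no common direction, with a median of −0.117 to 0.176 over the alternatives. The genes named here split between isoforms. Of hepatocyte forms, Pklr (liver pyruvate kinase) fell by 1.22 ± 0.21, Pygl (liver glycogen phosphorylase) by 1.54 ± 0.16 and G6pc, which releases glucose, by 1.87 ± 0.31. Of forms used by other cell types, Pkm rose by 1.70 ± 0.22 and Pfkp by 1.89 ± 0.20. Pkm was at 33.6 to 114 CPM in MCD IgG livers against 16.2 to 23 CPM in RCD IgG livers. MCD IgG 3 had the highest and MCD IgG 5 the lowest Pkm of the MCD IgG livers, as they had for the macrophage genes described below, whose part in these values was not tested. Pdk4, which blocks entry of pyruvate into the citric acid cycle, rose by 3.45 ± 0.39, with 11.8 to 74.6 CPM in MCD IgG livers against 1.93 to 5.67 CPM in RCD IgG livers.

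Ribosomal protein genes rose by a small amount and evenly: 56 of 72 were higher, 1 was lower and the median was 0.312 (0.28 to 0.555 over the alternatives), with all MCD IgG livers above all RCD IgG livers in 32. Rplp0 had 458, 562 and 786 CPM in MCD IgG livers and 330, 313, 367, 353 and 372 CPM in RCD IgG livers (0.71 ± 0.10, edgeR adjusted p = 9.6e-06), and Rpl12 rose by 0.76 ± 0.08. Nuclear genes of the respiratory chain fell by a smaller amount, 21 of 42 with 1 higher and a median of −0.167, but that count was 12 with upper-quartile scaling, 10 with the replicate block and 3 with library totals alone, where the median was 0.0734. Of 13 genes of the mitochondrial genome 7 were lower and 1 higher, with mt-Nd2 at 2212 to 4728 CPM in MCD IgG livers against 5955 to 7663 CPM in RCD IgG livers (−1.07 ± 0.14) and mt-Co1 at −0.60 ± 0.08. Proteasome genes, 5 of 31 higher and 6 lower with TMM, were 20 higher and 1 lower with library totals alone. The higher count was 8 with upper-quartile scaling and 1 with the replicate block.

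Lysosome genes rose and autophagy genes fell. Of 30 lysosome genes 19 were higher and 4 lower (median 0.364), among them Ctsl, a cysteine protease, with 1410, 1538 and 2006 CPM in MCD IgG livers and 436, 481, 552, 501 and 565 CPM in RCD IgG livers (1.70 ± 0.11, edgeR adjusted p = 8.7e-10). Ctsd rose by 1.12 ± 0.14 and Glb1, a galactosidase, fell by 1.15 ± 0.10. Of 25 autophagy genes 15 were lower and 4 higher (median −0.263; 8 lower with library totals alone, and 2 higher without RCD IgG 1, 3 or 5). Ulk2, a kinase that starts autophagy, had 27, 32.1 and 34.3 CPM in MCD IgG livers and 96.3, 86.7, 81.5, 94.5 and 86.8 CPM in RCD IgG livers (−1.49 ± 0.06, adjusted p = 1.88e-12), Ulk1 fell by 1.12 ± 0.12 and Atg14 by 0.90 ± 0.13. Sqstm1, the cargo receptor p62, which NRF2 also drives, rose by 0.74 ± 0.12, and Map1lc3b was at 0.05 ± 0.09 (adjusted p = 0.642). The lysosome is also rich in macrophages. As given above, monocyte and macrophage markers were mostly higher and Kupffer cell markers had a lower median. The part of these cells in the result was not tested.

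Iron genes were higher in 7 of 13 and lower in 2. Hepcidin mRNA rose, with Hamp2 at 1.10 ± 0.18 and Hamp at 0.34 ± 0.11 with overlapping ranges. Fth1, the ferritin heavy chain, rose by 0.56 ± 0.08 and the transferrin receptor Tfrc by 0.92 ± 0.15, while Tfr2, the iron sensor of hepatocytes, fell to 197 to 330 CPM in MCD IgG livers, against 459 to 490 CPM in RCD IgG livers (−0.86 ± 0.11, edgeR adjusted p = 3.5e-06).

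Liver transcription factors and nuclear receptors were lower in 16 of 29 and higher in 3 (median −0.307; 6 higher with library totals alone). Cebpa had 238, 276 and 347 CPM in MCD IgG livers and 515, 538, 563, 592 and 518 CPM in RCD IgG livers (−0.93 ± 0.09, edgeR adjusted p = 6.05e-08), Hnf4a, the master factor of hepatocytes, fell by 0.63 ± 0.08, Thrb, the thyroid hormone receptor, by 1.23 ± 0.11 and Nr1h4, the bile acid receptor FXR, by 0.54 ± 0.08. Ppargc1a, a coactivator of fasting, rose by 0.86 ± 0.21. Of 18 clock genes 8 were lower and none was higher, led by Nr1d1 (−1.26 ± 0.28) and Dbp (−1.25 ± 0.19). These oscillate over the day, the time of killing is not given in the sources used here, and with library totals alone 5 were lower. Immediate early genes, which also respond to handling, were higher in 7 of 10 (4 when 10 counts were required in every library), with Myc at 23.5 to 64.1 CPM in MCD IgG livers and 2.14, 2.36, 5.8, 13.4 and 3.64 CPM in RCD IgG livers (2.86 ± 0.39).

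Position in the lobule was checked with genes of the central and the portal zone. Of 12 pericentral genes 6 were higher and 3 lower, with Rhbg, an ammonium transporter, at 2.37 ± 0.27, Axin2, a Wnt target, at 0.70 ± 0.14 and Rgn at −1.36 ± 0.14. Of 12 periportal genes 6 were lower and 3 higher, with Pigr, the immunoglobulin receptor, at −1.15 ± 0.17 and Aldh1b1 at 1.65 ± 0.14. Neither zone moved as a whole.

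Genes of antigen presentation to CD4+ T cells rose: all 11 tested dendritic cell and MHC class II genes were higher (median 0.853), although in 9 of them the groups overlapped. H2-Aa had 34.7, 66.4 and 98.4 CPM in MCD IgG livers and 39.1, 44, 39.3, 38.6 and 28.1 CPM in RCD IgG livers (0.85 ± 0.19, edgeR adjusted p = 9.27e-04), the lowest MCD IgG value being that of MCD IgG 5. MHC class I genes did not follow, with 1 of 13 higher, H2-D1 (0.69 ± 0.07), and 4 lower, among them B2m (−0.34 ± 0.08). The lower count was 2 with upper-quartile scaling or the replicate block and 1 with library totals alone. Interferon-stimulated genes were higher in 9 of 23 and lower in 3 (1 with library totals alone), where 29.9% of all genes tested were higher and 27.2% lower. Usp18 was at 1.56 ± 0.14 and Zbp1 at 1.58 ± 0.21, whereas Irf7 fell by 0.61 ± 0.16. Toll-like receptors were higher in 7 of 12 (11 with library totals alone, 4 when 10 counts were required in every library), led by Tlr13 (2.42 ± 0.33), and Tlr5 fell by 1.69 ± 0.14. Of 8 tested B cell and plasma cell markers 3 were lower (1 when 10 counts were required in every library) and none higher, with Ighm at 3.53 to 14 CPM in MCD IgG livers against 14.7 to 28.4 CPM in RCD IgG livers (−1.67 ± 0.24). Of 20 T and NK cell markers 6 had enough counts to be tested and 3 were higher. That count was 1 without RCD IgG 5, with the replicate block or when 10 counts were required in every library.

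The hepatocyte keratins Krt8 and Krt18 rose by 1.42 ± 0.16 and 1.36 ± 0.10, and Afp, the fetal albumin, had 9.52, 15.7 and 57.5 CPM in MCD IgG livers and 0.402, 0.688, 1.5, 1.09 and 0.405 CPM in RCD IgG livers (4.57 ± 0.50, edgeR adjusted p = 5.52e-07). Of 18 collagen genes 12 were higher, but 4 were lower (2 with library totals alone), and Col27a1 fell to 6.54, 10.4 and 15.5 CPM in MCD IgG livers, against 115, 135, 111, 96.1 and 126 CPM in RCD IgG livers (−3.44 ± 0.17, adjusted p = 1.59e-11), with Col5a3 at −1.83 ± 0.18. Mmp14, a membrane-bound metalloproteinase, rose by 1.16 ± 0.09 and Reck, its inhibitor, fell by 1.39 ± 0.12. Quiescent stellate cell markers were higher in 6 of 12 and lower in none, with Dcn at 0.92 ± 0.12 and Lrat, which stores vitamin A, at 0.71 ± 0.18. The mean over members of log2(CPM + 1) minus the RCD IgG mean ran from 0.079 to 0.552 in MCD IgG livers. It ran from −0.298 to 0.332 in RCD IgG livers, so the groups overlapped. DNA replication genes were higher in 14 of 19 and lower in none (median 0.92), with Mcm2, a helicase subunit, at 7.05, 18.7 and 44.7 CPM in MCD IgG livers and 4.69, 3.64, 4.7, 2.27 and 4.35 CPM in RCD IgG livers (2.34 ± 0.41).

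MCD IgG livers differed among themselves more than RCD IgG livers did: the median SD of log2(CPM + 1) over genes was 0.206 in MCD IgG and 0.161 in RCD IgG, and 68% of genes had the larger SD in MCD IgG. Of the 544 genes that changed at least 2-fold and averaged at least 20 CPM in MCD IgG livers, the SD ran from 0.056 to 1.352 with a median of 0.33. The widest were Saa1 and Saa2, Fgf21, Cux2 and Cyp3a44, and the tightest Ano10, Ugt2b5 and Sult1e1, a choice of genes made after their values were seen. Ano10, an anoctamin, was at 26.4 to 29.7 CPM in MCD IgG livers and 10.9 to 13.9 CPM in RCD IgG livers (1.25 ± 0.07), and Mgst1, a membrane glutathione transferase, was at 1161 to 1421 CPM in MCD IgG livers and 2500 to 3022 CPM in RCD IgG livers (−1.09 ± 0.07).

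A score for each list, the mean over its members of log2(CPM + 1) minus the RCD IgG mean, showed which livers stood at the ends. MCD IgG 5 was lowest of the 10 in 27 of 73 lists, MCD IgG 3 highest in 22 and MCD IgG 2 highest in 20. For lipid-associated macrophage markers the score was 2.202 in MCD IgG 5 and 4.334 in MCD IgG 3, for monocyte and macrophage markers 0.215 and 1.841, for mitosis 0.032 and 1.983 and for dendritic cell and MHC class II genes 0.018 and 1.271. In MCD IgG 5 the mitosis and MHC class II scores lay inside the RCD IgG range (−0.127 to 0.092 and −0.122 to 0.154), while its carboxylesterase score of −2.414 was the lowest of all livers and its ATF4 score came second to that of MCD IgG 7, 1.933. MCD IgG 3 was also lowest for P450 enzymes, at −1.467, with 42.7 CPM of Cyp2c29. MCD IgG 2, which carried most Krt19, had the lowest ATF4 score of the MCD IgG livers, 1.023.

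**Figure D5:**
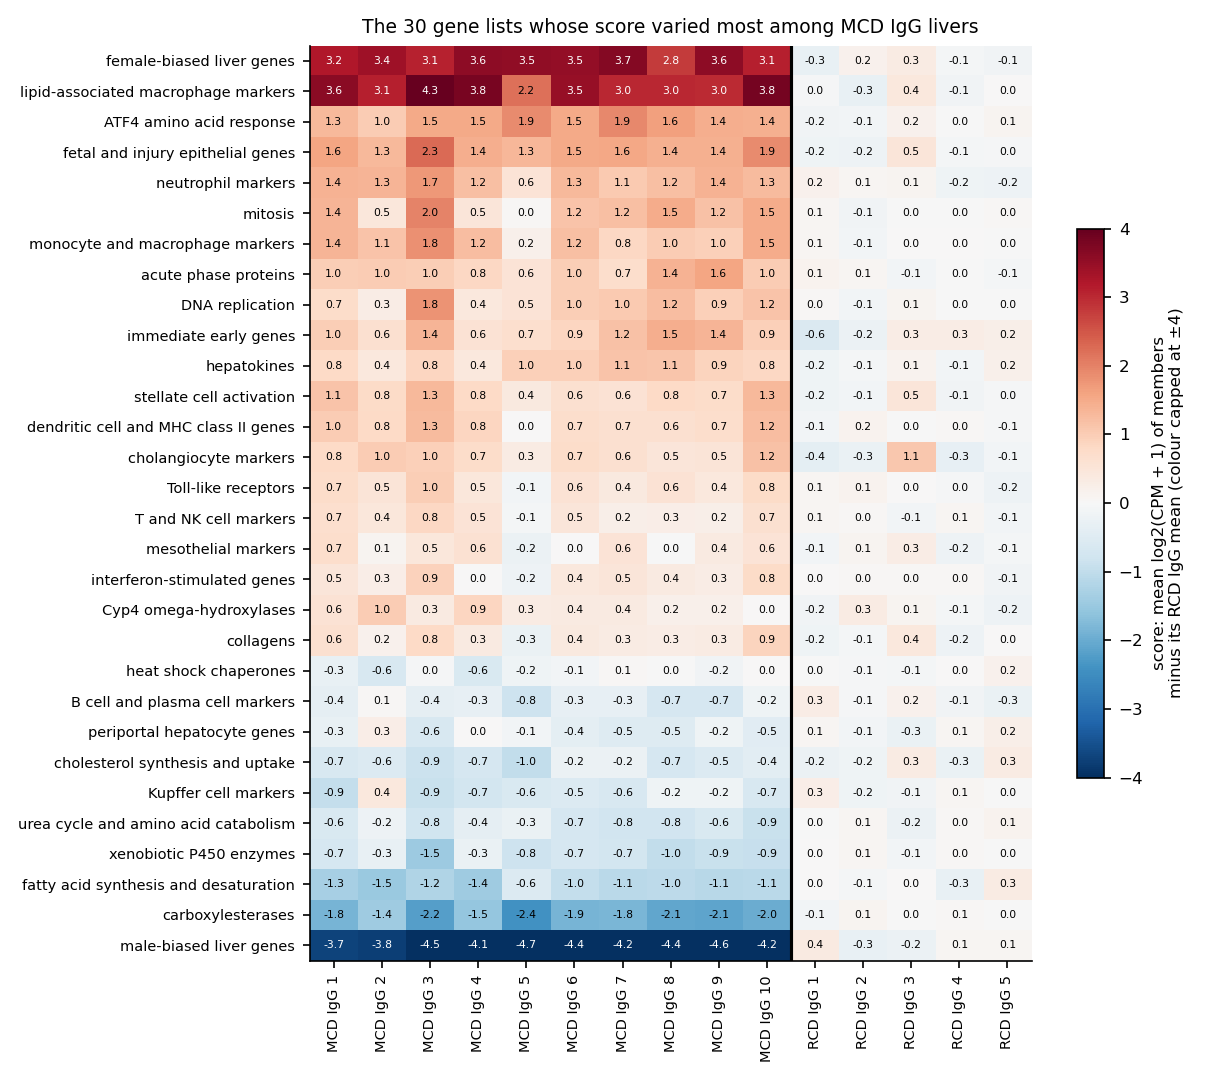
Rows are the 30 gene lists whose score varied most among MCD IgG livers and columns the 15 livers, MCD IgG at the left of the line, with the score printed in each cell and colour capped at 4. MCD IgG 3 and MCD IgG 5 lie at opposite ends of the macrophage, mitosis and MHC class II rows, and RCD IgG 3 stands out in the cholangiocyte row.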

How the data were processed

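Bulk liver RNAseq was analysed as raw counts per gene, which the authors deposited without normalization, 1 column per liver. The file header names STAR, featureCounts, GRCm38 and Ensembl genes, whereas the published methods name HISAT2 and GRCm39, and tool versions and the strand setting of the counting are not given in the sources used here. Coordinates are those of GRCm38. Of 60 columns with a value per sample, 15 were used and 45 were not (other treatments and the authors' normalized values), nor were the columns of the authors' own comparisons, which hold DESeq2 fold changes and p-values.

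Only the 15 IgG livers were fitted. Low counts were filtered with edgeR's filterByExpr, libraries were scaled by TMM, and groups were compared with edgeR's quasi-likelihood test and Benjamini-Hochberg adjustment over the 13672 genes tested (R 4.3.3, edgeR 4.0.16, limma 3.58.1, DESeq2 1.42.0, Python 3.11.15, scipy 1.17.1). The fit was first tested on simulated data. Log2 fold changes are MCD IgG over RCD IgG, given with their standard errors. Nothing in the labels says more of the replicates than that they are separate samples, so p-values measure the spread between these samples. Same-numbered livers of the 2 groups deviated together weakly or not at all (correlations of -0.122 to 0.134), and nothing in the labels pairs them. For replicate 3 the same-numbered liver was the closest match. Such correlations cannot exclude a shared batch or order.

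The members and the 73 gene lists were chosen with earlier results of these data known. Genes were named by role in a list, by the smallest p in a list (up to 6), when called against the direction of most of a list, or among the largest changes in fold (12 each way) or in CPM (10 each way); Dmgdh, Cept1, Lpin1, Vldlr, Myh11, Ano10, Mgst1, Krt20 and Sult2a3 were added after their values were seen. Promoters were RefSeq sequences of GRCm38.p6. Alternatives were DESeq2, limma on log2(CPM + 1), RLE, upper-quartile and no scaling factors, other filters on low counts, removal of Mup counts, the replicate number as a block and leaving out each liver. Some genes are not reported here.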

Additional observations from a re-analysis of the deposited data

Results flagged for a closer look

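Of 418 groups of livers looked at, 2 for each gene named, 35 (8.37%) were flagged. In these, 1 liver had a gap to the nearest of the others that was large against the range of its group. For normally distributed values the limit flags about 1 in 20 groups. The genes were chosen, some after their values were seen, and some have few counts, so the share cannot be set against that rate. MCD IgG 2, MCD IgG 5 and RCD IgG 3 held 7 each and MCD IgG 3 held 4. No explanation was tested.

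MCD IgG 2 was far above the rest of its group for Chrna4 (2.29 CPM, others 0 to 0.655), Myh11 (17 CPM, others 1.96 to 5.97) and Ppargc1a (32.1 CPM, others 10.7 to 18.6). MCD IgG 2 was far below the rest of its group for Asns (32.6 CPM, others 45.4 to 65.6), Hspa5 (478 CPM, others 772 to 1293), Lpin3 (11.1 CPM, others 17 to 22.2) and Mthfd2 (1.41 CPM, others 4.62 to 12.5). MCD IgG 3 was far above the rest of its group for Afp (57.5 CPM, others 9.52 to 22.2). MCD IgG 3 was far below the rest of its group for Abcb1a (29.5 CPM, others 36.5 to 44.6), Cyp2c29 (42.7 CPM, others 131 to 452) and Slc22a27 (24.5 CPM, others 36.3 to 55.5). MCD IgG 4 was far below the rest of its group for Tfrc (26.4 CPM, others 41 to 55.4). MCD IgG 5 was far above the rest of its group for Kynu (108 CPM, others 56.2 to 75.6), Rpl12 (306 CPM, others 228 to 264), Rplp0 (786 CPM, others 458 to 585) and Scd1 (4015 CPM, others 339 to 1045). MCD IgG 5 was far below the rest of its group for Irf7 (14.1 CPM, others 23.5 to 38.9), Rhbg (3.71 CPM, others 6.88 to 13) and Zbp1 (7.78 CPM, others 15.4 to 26.9). MCD IgG 7 was far above the rest of its group for Gss (192 CPM, others 133 to 159).

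RCD IgG 1 was far above the rest of its group for Tlr13 (3.22 CPM, others 1.93 to 2.16). RCD IgG 1 was far below the rest of its group for Krt8 (197 CPM, others 226 to 228), Tfr2 (459 CPM, others 482 to 490) and Zbp1 (5.76 CPM, others 6.68 to 6.89). RCD IgG 2 was far above the rest of its group for Ano10 (13.9 CPM, others 10.9 to 11.7). RCD IgG 2 was far below the rest of its group for Glb1 (15.1 CPM, others 17.3 to 18.2). RCD IgG 3 was far above the rest of its group for Krt19 (15.1 CPM, others 0.393 to 1.21), Myh11 (29.9 CPM, others 2.81 to 4.62) and Pfkp (4.6 CPM, others 2.68 to 2.75). It was flagged for Slc7a11 as well (0.09997 CPM, others 0 to 0), a value that rests on 1 count. RCD IgG 3 was far below the rest of its group for Otc (392 CPM, others 494 to 531), Pigr (1446 CPM, others 1783 to 1929) and Serpina1c (3332 CPM, others 4316 to 4790). RCD IgG 4 was far below the rest of its group for Bcl6 (29.1 CPM, others 86.4 to 117). RCD IgG 5 was far above the rest of its group for G6pc (1029 CPM, others 502 to 585).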

How the results depend on the processing

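With library totals alone 6530 genes were higher and 1987 lower, and 429 were lower by at least 2-fold, against 4084, 3723 and 670 with TMM. Requiring 10 counts in every library left 11395 genes and 1172 changed at least 2-fold (730 higher, 442 lower), limma on log2(CPM + 1) called 1413 (872 higher), and without a filter 1021 were lower by at least 2-fold, against 2180 (1510 higher, 670 lower). Leaving out 1 liver gave 7218 to 7956 genes changed and 2043 to 2394 changed at least 2-fold. With the replicate block 6275 genes were changed. Whether the replicate numbers mark a shared batch or order is not known. RCD IgG livers are numbered 1 to 5. With the block, MCD IgG 6 to 10 therefore have no partner and add nothing to the estimate of the diet change. This holds for every count and call given with the replicate block. The part of this in the lower count was not tested. Of 209 genes named in the text, 176 could be tested under every alternative and 164 of these kept their call in all; requiring 10 counts in every library left 178. Cish, at −0.32, ranged from −0.53 to 0.86 on leaving out 1 liver, the last without RCD IgG 4. Cept1 was at 0.24 with library totals alone. Calls of Mat1a, Dmgdh, Atf4, Phgdh, Hspa5, Acbd4, B2m and Irf7 were lost under at least 1 alternative, and C3, Apob, Mdm2, Map1lc3b and Myh11 passed under at least 1; the cause was not tested. Genes with few counts in RCD IgG livers have fold changes that depend on the prior count.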
